A study of Mus musculus with 13 samples.

Results

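The interleukin-1 (IL-1) family was followed here through 10 genes, chosen by name: the cytokine genes Il1a, Il1b and Il18, the antagonist gene Il1rn, and the receptor genes Il1r1, Il1r2, Il1rap, Il1rl1, Il1rl2 and Il18r1. All 10 were found among the 20054 genes of the count table, each under 1 identifier, and all 10 had enough counts for the test. Whole esophagus was sequenced from 6 wild-type (WT) and 7 dblGATA libraries. Mice of both groups, described as C57/BL6, were given 4-nitroquinoline 1-oxide (4-NQO), a carcinogen, over 8 weeks, and propylene glycol as vehicle over the next 8 weeks, and their tissue is labelled pre-cancer. The dblGATA allele, from a Jackson line, removes a GATA site in the Gata1 gene that eosinophils need in order to form. Neither untreated esophagus nor a WT group given vehicle alone was analysed here, so every value describes tissue after the carcinogen. Age and sex are not given in the labels used here.

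IL-1 alpha and IL-1 beta bind the receptor IL1R1, which then recruits the accessory chain encoded by Il1rap and signals through MyD88 and IRAK kinases to NF-kappaB. The antagonist encoded by Il1rn occupies IL1R1 without signalling, and IL1R2 is a decoy that binds the cytokine but lacks a signalling domain. The accessory chain is shared by the IL-33 receptor (Il1rl1) and the IL-36 receptor (Il1rl2), while IL-18 uses its own pair of chains. In squamous epithelium, keratinocytes store IL-1 alpha and IL-33 and make the IL-36 cytokines, and IL-1 beta comes largely from myeloid cells.

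Of the 10 members, 4 rose in dblGATA, the receptor chains Il1rl2, Il1rap and Il1r2 and the antagonist Il1rn, and none fell. Among all 16599 genes tested, 13.5% changed, 7.1% being higher and 6.39% lower (edgeR quasi-likelihood test, Benjamini-Hochberg adjusted p under 0.05 over all genes). The members' median log2 fold change (dblGATA over WT) was 0.30, beside -0.00 for all genes tested, and 9 of 10 members had a positive value. At an unadjusted edgeR p under 0.05, 5 members passed, the fifth being Il1b, beside 5371 of the 16599 genes tested. DESeq2 and limma-voom each called 4 members higher and 0 lower. In the authors' deposited table the same 4 members have an adjusted p under 0.05, in a table of 17082 genes of which 18.2% do, 9.57% with higher values in dblGATA. Leaving out both WT 4 and WT 6, the WT libraries richest in Rn18s, left no member and no gene below the adjusted threshold. An unadjusted p under 0.05 was then still found for 4 members, beside 3542 of the 16930 genes tested.

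The 3 receptor chains that rose and the antagonist are shown here by their RefSeq promoters, because these 4 genes passed the test. All are on the + strand of build GRCm38.p6, from 250 bases before to 50 after the start. The windows are chr1:40324339-40324638 for Il1rl2, chr16:26581455-26581754 for Il1rap, chr1:40085843-40086142 for Il1r2 and chr2:24336610-24336909 for the upstream start of Il1rn. Capitals mark the AP-1 motif TGANTCA, searched on both strands.
Il1rl2: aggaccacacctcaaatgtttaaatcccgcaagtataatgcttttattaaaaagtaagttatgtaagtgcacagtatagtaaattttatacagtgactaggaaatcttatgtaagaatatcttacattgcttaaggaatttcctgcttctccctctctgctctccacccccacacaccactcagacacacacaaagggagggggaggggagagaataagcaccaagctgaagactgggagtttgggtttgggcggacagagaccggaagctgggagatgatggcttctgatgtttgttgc
Il1rap: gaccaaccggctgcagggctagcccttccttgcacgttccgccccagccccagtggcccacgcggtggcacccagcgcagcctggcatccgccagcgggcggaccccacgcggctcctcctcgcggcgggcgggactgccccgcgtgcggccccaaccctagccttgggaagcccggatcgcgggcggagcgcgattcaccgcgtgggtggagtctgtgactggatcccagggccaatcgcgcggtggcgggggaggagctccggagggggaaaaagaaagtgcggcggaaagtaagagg
Il1r2: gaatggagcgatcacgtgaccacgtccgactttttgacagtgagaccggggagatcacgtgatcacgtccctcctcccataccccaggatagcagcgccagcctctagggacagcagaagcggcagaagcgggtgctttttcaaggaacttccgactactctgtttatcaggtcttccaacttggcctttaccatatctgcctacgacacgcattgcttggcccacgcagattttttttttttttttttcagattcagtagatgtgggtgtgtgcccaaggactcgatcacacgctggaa
Il1rn: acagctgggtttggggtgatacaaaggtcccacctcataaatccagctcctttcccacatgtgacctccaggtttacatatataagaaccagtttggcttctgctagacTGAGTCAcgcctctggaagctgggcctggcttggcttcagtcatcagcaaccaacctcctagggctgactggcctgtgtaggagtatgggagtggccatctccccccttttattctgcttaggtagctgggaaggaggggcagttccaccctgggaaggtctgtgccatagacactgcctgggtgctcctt
Among these 4 windows only that of Il1rn held the AP-1 motif, 141 bases before the start. The table lists 2 further starts of Il1rn downstream, and neither of their windows held it. Of the 16 promoter windows listed for the 10 members, 2 held it, the other being that of Il1a, 12 bases before its start. The motif was present in 6.39% of the 18375 promoters of the table. The kappaB consensus, also searched on both strands, was found in 1 of the 16 windows, at an alternative start of Il1r1 (GGAATGCCCC, 232 bases before it), and in 10.2% of all promoters. Matches of this kind describe letters in a window and not bound sites, and stretches that depart from the searched patterns were not counted. In the same RefSeq table the starts of Il1r2, Il1r1, Il1rl2, Il1rl1 and Il18r1 follow each other along chromosome 1, while those of Il1rn, Il1a and Il1b lie on chromosome 2, Il18 on chromosome 9 and Il1rap on chromosome 16. So 2 of the 5 members on chromosome 1 rose, with neighbours on the same strand that did not pass the test.

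Levels of the members differed widely. Because longer transcripts give more counts, levels were compared between genes as CPM (counts scaled to the size of the library) per kilobase of the longest GENCODE M21 coding transcript. In WT the order was Il18 (59.6 CPM per kilobase), Il1r2 (41.1), Il1rn (20.6), Il1rl2 (12.3), Il1a (4.79), Il1rap and Il1r1 (each 3.50), Il18r1 (1.45), Il1b (1.28) and Il1rl1 (0.987). The decoy receptor therefore stood far above the signalling receptor per unit of length. Il18 and Il1r2 lay within 1 SD over libraries of each other, as did Il1a, Il1rap and Il1r1, and Il18r1, Il1b and Il1rl1, so these neighbours in the order did not differ beyond their spread. The authors' counting may have used other transcripts, so the per-length order depends on the transcript chosen.

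**Figure D1:**
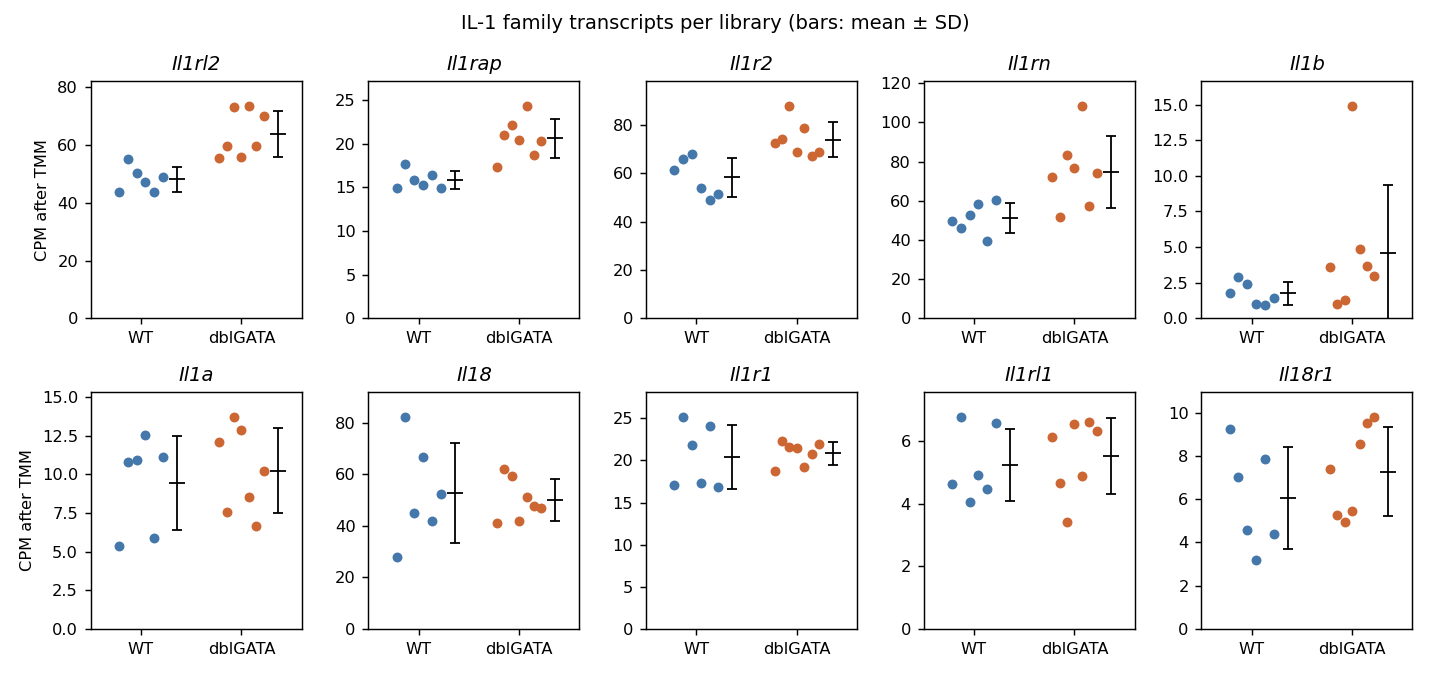
Levels of the 10 IL-1 family transcripts in each library, as CPM after TMM scaling on linear axes from 0, with 6 WT libraries (blue) and 7 dblGATA libraries (orange); black bars are the mean ± SD, and for Il1b the lower end of the bar runs below 0. Il1rl2 is the 1 panel without overlap between the groups, and a single dblGATA library stands at 14.9 CPM for Il1b.

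Among the receptors, Il1rl2, the chain that binds IL-36 cytokines, separated the groups completely. Its level was 43.7, 48.0 and 55.2 CPM (lowest, median and highest) in the 6 WT libraries and 55.6, 59.8 and 73.4 CPM in the 7 dblGATA libraries. Every dblGATA library lay above every WT library, a pattern found in 1.95% of all genes tested, although dblGATA 1 (55.6 CPM) and WT 2 (55.2 CPM) nearly touched. The mean moved from 48.2 ± 4.35 to 64.0 ± 8.03 CPM (SD, n = 6 and 7), which is 0.41 ± 0.09 (SE) on the log2 scale (edgeR adjusted p = 0.0179). It passed the test in all 13 fits that left out 1 library, with log2 fold changes from 0.37 to 0.45. The highest edgeR adjusted p among those fits was 0.0480, close to the threshold.

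Il1rap, the accessory chain that IL-1, IL-33 and IL-36 receptors share, was higher in nearly every dblGATA library. It stood at 14.9, 15.5 and 17.7 CPM in WT and at 17.4, 20.4 and 24.2 CPM in dblGATA (lowest, median and highest). The overlap came from dblGATA 1 (17.4 CPM), which was below WT 2 (17.7 CPM), while the other 6 dblGATA libraries were above all WT libraries. The mean rose from 15.8 ± 1.08 to 20.6 ± 2.23 CPM (SD, n = 6 and 7), or by 0.38 ± 0.08 (SE) on the log2 scale (edgeR adjusted p = 0.0172). It also passed in all 13 fits without 1 library, with log2 fold changes from 0.34 to 0.42 and an edgeR adjusted p of at most 0.0480. In GENCODE M21 exons of Il1rap share 552 bases with Gm20319 on the opposite strand, and whether the authors' counting used strand is not given in the sources used here.

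Il1r2, the decoy receptor, rose from 58.3 ± 7.90 to 73.9 ± 7.22 CPM (SD, n = 6 and 7). Its WT libraries ran from 48.9 over a median of 57.6 to 68.0 CPM and its dblGATA libraries from 67.3 over 72.7 to 87.7 CPM. Only WT 3 (68.0 CPM) reached into the dblGATA range, above dblGATA 6 (67.3 CPM). The log2 fold change was 0.34 ± 0.09 (SE, edgeR adjusted p = 0.0279). In 8 of the 13 fits without 1 library the call held. It was lost without WT 4 (edgeR adjusted p = 0.0640), WT 6 (0.0704), dblGATA 3 (0.0544), dblGATA 5 (0.0593) or dblGATA 7 (0.0510), with log2 fold changes of 0.30 to 0.36 in those fits.

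The remaining receptor genes did not pass the test, and their intervals (2 SE either side) were wide enough to hold changes as large as those above for Il1rl1 and Il18r1 but not for Il1r1. Il1r1, the signalling receptor of IL-1, ran from 16.9 over 19.6 to 25.1 CPM in WT and from 18.7 over 21.4 to 22.3 CPM in dblGATA. All dblGATA libraries lay inside the WT range, and the log2 fold change was 0.03 ± 0.10 (SE, edgeR adjusted p = 0.847), with an interval from -0.17 to 0.24. Il1rl1, the IL-33 receptor found on mast cells and regulatory T cells among others, stood at 4.04, 4.78 and 6.76 CPM in WT and at 3.41, 6.14 and 6.62 CPM in dblGATA. Its log2 fold change was 0.08 ± 0.17 (SE, edgeR adjusted p = 0.787). Il18r1, the ligand-binding chain of the IL-18 receptor, spread from 3.20 over 5.80 to 9.24 CPM in WT and from 4.94 over 7.39 to 9.79 CPM in dblGATA. Both groups covered much the same range, and the log2 fold change was 0.26 ± 0.25 (SE, edgeR adjusted p = 0.483).

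Il1rn, the receptor antagonist, had the highest fold among the 4 members that rose. Its WT libraries ran from 39.5 over a median of 51.2 to 60.2 CPM and its dblGATA libraries from 51.7 over 74.0 to 108 CPM. In dblGATA, 5 of 7 libraries were above every WT library, dblGATA 2 (51.7 CPM) and dblGATA 6 (57.4 CPM) lay within the WT range, and dblGATA 5 was highest. The mean rose from 51.1 ± 7.68 to 74.7 ± 18.4 CPM (SD, n = 6 and 7), or by 0.55 ± 0.15 (SE) on the log2 scale (edgeR adjusted p = 0.0327). The call held in 6 of the 13 fits without 1 library. It was lost without WT 1, WT 4, WT 5, WT 6, dblGATA 3, dblGATA 5 or dblGATA 7, with edgeR adjusted p from 0.0547 to 0.0642 and log2 fold changes from 0.44 to 0.59.

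The size of the Il1rn difference also depended on how the authors' table was scaled. In their normalized table Il1rn ran from 2585 to 4545 in WT and from 4015 to 9760 in dblGATA, and the authors' deposited table gives a log2 fold change of 0.74 (adjusted p = 0.00498). The factor by which the raw value had been divided differed for this gene between libraries. In WT 1 it was 1.46 times the median factor of that library, and over all libraries it deviated by -0.24 to 0.55 on the log2 scale. For Il1r2, Il1rap, Il1r1, Il1a and Il18 the same deviation stayed within 0.06 on the log2 scale. With those factors in edgeR, Il1rn had a log2 fold change of 0.74 (adjusted p = 0.0360).

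Il1b was the member with the largest fold change, and it did not pass the test over all genes. Its WT libraries stood at 0.947, 1.62 and 2.87 CPM (lowest, median and highest) and its dblGATA libraries at 0.998, 3.57 and 14.9 CPM. In dblGATA, 5 of 7 libraries were above every WT library, but dblGATA 2 (0.998 CPM) and dblGATA 3 (1.26 CPM) were among the low WT values, and dblGATA 4 stood far above the next one (4.85 CPM). Means were 1.74 ± 0.784 and 4.59 ± 4.74 CPM (SD, n = 6 and 7). The log2 fold change was 1.40 ± 0.56 (SE), with an edgeR p of 0.0256 that became 0.104 after adjustment. Without dblGATA 4 the log2 fold change was 0.72 (edgeR adjusted p = 0.222). DESeq2 gave an adjusted p of 0.0621 and the authors' deposited table an adjusted p of 0.0668. An annotated transcript on the opposite strand, Il1bos, shares 25 exon bases with Il1b and averaged 0.353 and 0.376 CPM in WT and dblGATA.

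The library dblGATA 4 was also the highest of the 13 for several genes that IL-1 induces in many cell types. There Cxcl1, a neutrophil chemokine, stood at 8.50 CPM, beside at most 0.996 CPM in WT, and Ptgs2, the inducible cyclooxygenase, at 29.3 CPM, beside at most 3.64 CPM in WT. Csf3r, the G-CSF receptor of neutrophils, was at 4.81 CPM there. The summed level of the 10 neutrophil markers was 1134 CPM in dblGATA 4, within the ranges of WT (190 to 2144 CPM) and dblGATA (139 to 2171 CPM), with Ly6g, Mmp8 and Ngp at 0 in some libraries. S100a8 and S100a9, which keratinocytes also express, made up 1114 CPM of that sum, and the other 8 markers 19.7 CPM, beside 13.1 (dblGATA 2) to 52.4 CPM (dblGATA 3) in all libraries except WT 3, where they were far higher. The part of neutrophils in the Il1b values was not tested.

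**Figure D2:**
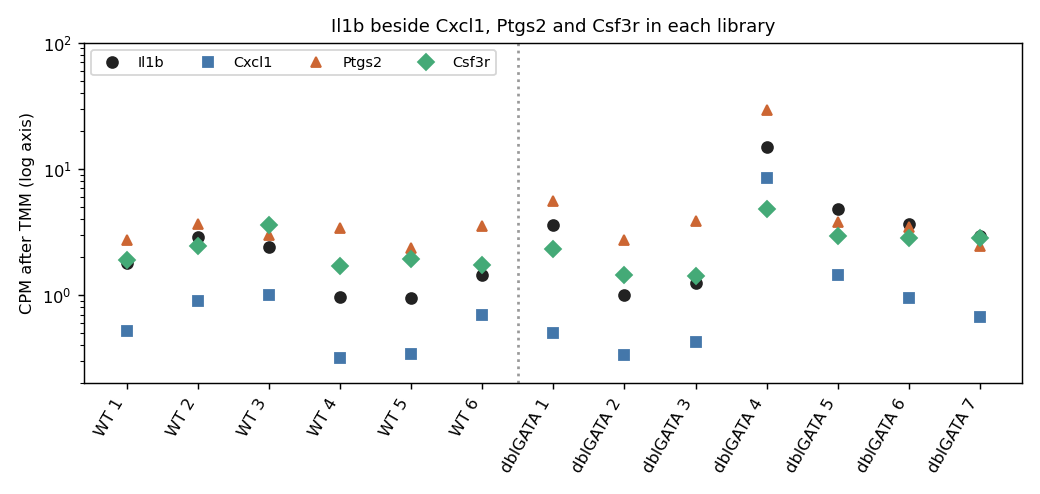
Levels of Il1b (circles), Cxcl1 (squares), Ptgs2 (triangles) and Csf3r (diamonds) in the 6 WT and 7 dblGATA libraries, as CPM after TMM scaling on a log axis, with a dotted line between the groups. In dblGATA 4 all 4 transcripts are at their highest, with Il1b at 14.9 CPM and Ptgs2 at 29.3 CPM.

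The other cytokine genes did not differ beyond their spread. Il1a, the IL-1 stored in keratinocytes, ran from 5.37 over 10.9 to 12.6 CPM in WT and from 6.64 over 10.2 to 13.7 CPM in dblGATA. Its log2 fold change was 0.12 ± 0.23 (SE, edgeR adjusted p = 0.754), and WT 1 and WT 5 were the lowest libraries of all. Il18, made constitutively by epithelium, ran from 28.0 over 48.7 to 82.3 CPM in WT and from 41.0 over 47.9 to 62.1 CPM in dblGATA. Both medians were nearly equal, the WT libraries spread further on either side, and the log2 fold change was -0.07 ± 0.20 (SE, edgeR adjusted p = 0.830). The intervals (2 SE) ran from -0.33 to 0.57 for Il1a and from -0.47 to 0.33 for Il18, so a rise as large as that of Il1rl2 lay inside the interval of Il1a and outside that of Il18. Il1a shares 222 exon bases with Gm14023 on the opposite strand, which averaged 1.04 and 0.820 CPM in WT and dblGATA.

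Other genes of the family were read from a list of 11, of which 10 had enough counts. None passed the test by edgeR, and the median log2 fold change was 0.13. An unadjusted p under 0.05 was found for 1 of them, beside 5371 of all 16599 genes tested. DESeq2 called 1 and limma-voom 0. That gene was Il36g, an IL-36 cytokine of keratinocytes that signals through the chains encoded by Il1rl2 and Il1rap. It stood at 88.3, 108 and 136 CPM in WT and at 114, 141 and 175 CPM in dblGATA (lowest, median and highest), with 4 of 7 dblGATA libraries above every WT library. Its log2 fold change was 0.37 ± 0.13 (SE, edgeR p = 0.0128, adjusted p = 0.0691), and the authors' deposited table gives an adjusted p of 0.0228. It passed by edgeR without WT 2 (adjusted p = 0.0351) or dblGATA 6 (0.0493).

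The other IL-36 cytokine genes and the IL-36 antagonist were abundant and overlapped between the groups. Il36a had means of 176 ± 64.8 and 190 ± 44.6 CPM, Il36b of 67.3 ± 30.3 and 74.8 ± 15.1 CPM, and the antagonist Il36rn of 122 ± 39.1 and 140 ± 29.8 CPM in WT and dblGATA (SD, n = 6 and 7). Il33, the alarmin ligand of the Il1rl1 product, moved from 79.7 ± 15.7 to 93.7 ± 17.0 CPM (log2 fold change 0.23 ± 0.14 SE, edgeR adjusted p = 0.259). Il18rap, the second chain of the IL-18 receptor, had 2.38 ± 0.581 and 3.02 ± 0.998 CPM. Il18bp, a secreted trap for IL-18, ran from 3.38 to 6.20 CPM in WT and from 3.49 to 5.07 CPM in dblGATA, and Sigirr, an inhibitory receptor of the family, had 3.68 ± 0.709 and 3.43 ± 0.465 CPM. None of these passed the test, nor did Il1f10 and Il1rapl1, whose means were below 0.2 CPM in both groups. Il1rapl2 had too few counts to be tested.

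**Figure D3:**
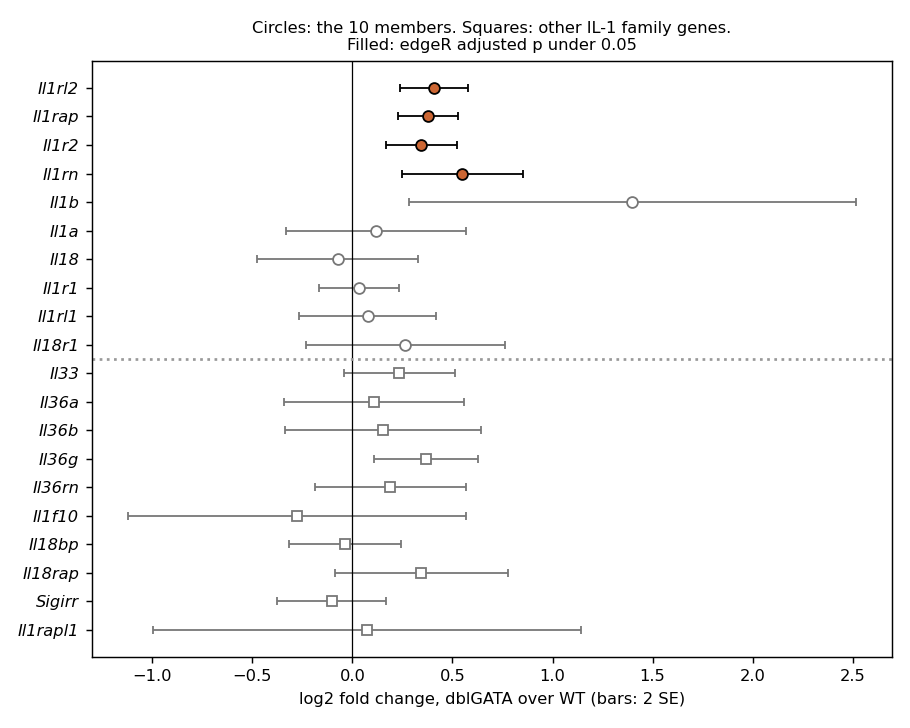
Log2 fold change (dblGATA over WT) with bars of 2 SE for the 10 members (circles) and 10 further IL-1 family genes (squares), from 6 WT and 7 dblGATA libraries; filled symbols have an edgeR adjusted p under 0.05. The filled points are Il1rl2, Il1rap, Il1r2 and Il1rn, between 0.34 and 0.55, and Il1b has the largest value with a bar from 0.28 to 2.52.

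Ratios of 2 members within a library are free of any factor that scales a whole library, but not of factors that differ by gene, such as those of the authors' normalized table. For each of 6 ratios the difference in mean log2 ratio was tested by exact permutation (two-sided), using each of the 1716 ways to divide the libraries into 6 and 7. The ratio of Il1rap to Il1r1, the accessory to the signalling chain, was -0.35 ± 0.18 in WT and -0.02 ± 0.17 in dblGATA (log2 of CPM, SD, n = 6 and 7). The 2 groups did not overlap, with WT from -0.55 to -0.18 and dblGATA from -0.15 to 0.34. The difference of 0.32 had an exact permutation p of 0.000583, the smallest these libraries can give, and an adjusted p of 0.0035 over the 6 ratios, with the ratio higher in 7 of 7 dblGATA libraries than in any WT library. Without WT 3 and WT 5 the difference was 0.24 (exact permutation, adjusted p = 0.0909).

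The ratio of the decoy Il1r2 to Il1r1 was 1.52 ± 0.28 in WT and 1.82 ± 0.17 in dblGATA on the log2 scale (SD, n = 6 and 7). The groups overlapped, with 3 of 7 dblGATA libraries above every WT library, and the difference of 0.30 had an exact permutation p of 0.0332 (adjusted 0.0997). Without WT 1 the difference was 0.36 (exact permutation, adjusted p = 0.0114). The ratio of antagonist to agonist, Il1rn to Il1a, was 2.49 ± 0.42 in WT and 2.88 ± 0.40 in dblGATA, a difference of 0.38 (exact permutation p = 0.115, adjusted 0.231). Without WT 1, in which Il1a was lowest, this difference was 0.53 (exact permutation, adjusted p = 0.0429), and with the authors' normalized values it was 0.55 (adjusted p = 0.0245). Il1rn to Il1b (-0.48), Il1a to Il1b (-0.86) and Il18bp to Il18 (-0.01) did not pass, with exact permutation p of 0.430, 0.171 and 0.978.

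**Figure D4:**
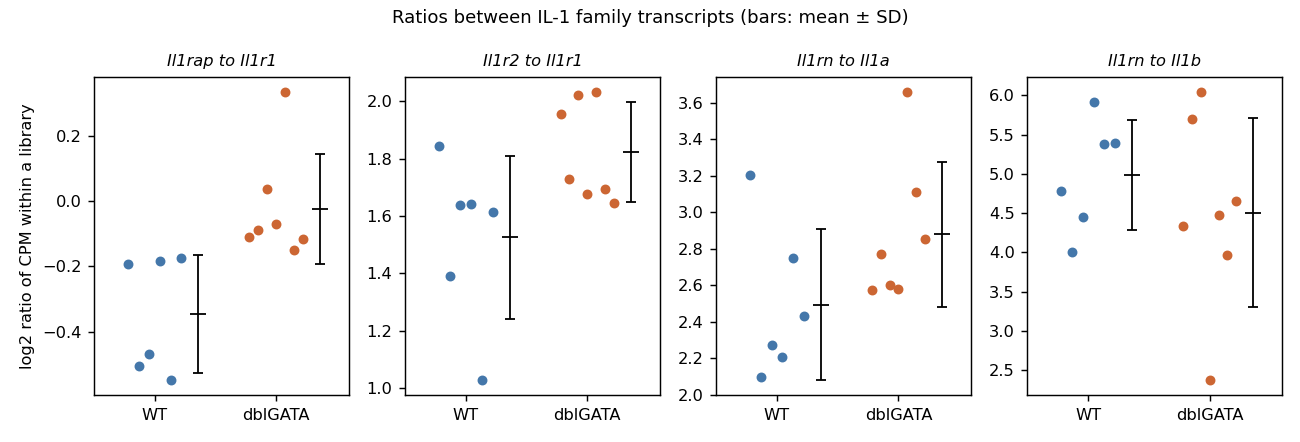
Log2 ratio of CPM within each library for 4 pairs of IL-1 family transcripts, with WT libraries in blue, dblGATA libraries in orange and black bars for the mean ± SD; the vertical axes differ between panels and do not start at 0. Only the ratio of Il1rap to Il1r1 separates the groups, from -0.55 to -0.18 in WT and from -0.15 to 0.34 in dblGATA.

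The genes that carry the receptor signal were read next. Of 20 receptor signalling genes tested, 5 rose and 0 fell in dblGATA, and 18 had a positive log2 fold change, with a median of 0.11. Among all genes tested 7.1% rose and 6.39% fell. DESeq2 called 5 higher and 1 lower, and edgeR called 2 with the Xist against Ddx3y covariate. The 5 were Nfkb1 and Rela, which encode NF-kappaB subunits, Irak4 and Myd88, the kinase and adaptor next to the receptor, and Traf6, the ubiquitin ligase downstream of them. Irak4 stood at 15.7, 17.2 and 18.1 CPM in WT and at 18.1, 19.8 and 23.7 CPM in dblGATA (lowest, median and highest). Its groups did not overlap, but WT 3 (18.09 CPM) and dblGATA 4 (18.10 CPM) nearly touched. Every dblGATA library lay above every WT library in 1.95% of all genes tested. Log2 fold changes were 0.29 for Nfkb1 (edgeR adjusted p = 0.0229), 0.28 for Irak4 (0.0291), 0.22 for Rela (0.0347), 0.27 for Myd88 (0.0351) and 0.34 for Traf6 (0.0400). Without 1 library the count was 0 (WT 4, WT 6, dblGATA 5 or dblGATA 7 left out), 1 (dblGATA 3), 2 (WT 1), 4 or 5 in 6 other fits, and 7 without WT 2.

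NF-kappaB feedback genes are induced by NF-kappaB and in turn restrain or modify it. None of 8 passed by edgeR, all 8 had a positive log2 fold change and the median was 0.31. An unadjusted p under 0.05 was found for 4 of the 8, beside 5371 of all 16599 genes tested. DESeq2 called 4, beside 3536 of all 16599 genes, and limma-voom 0. With edgeR, 4 were called without dblGATA 2, 2 without dblGATA 6 and 1 without WT 2, where 1638, 2215 and 3828 of all genes were called. Nfkbiz, which encodes the nuclear protein IkappaB zeta, stood at 43.4, 63.9 and 79.7 CPM in WT and at 56.9, 91.1 and 140 CPM in dblGATA. Its highest library was again dblGATA 4, and its log2 fold change was 0.57 ± 0.19 (SE, edgeR adjusted p = 0.0611). Nfkbia had a log2 fold change of 0.31 (edgeR adjusted p = 0.0712) and Bcl3 of 0.57 (0.0834).

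Of 18 tested genes that IL-1 induces, 1 rose and none fell, with a median log2 fold change of 0.32. That is 5.56% higher, beside 7.1% of all genes tested, so the count is near the background. An unadjusted p under 0.05 was found for 2 of the 18, beside 5371 of all 16599 genes tested. DESeq2 and limma-voom also called 1, while upper-quartile scaling and the Xist against Ddx3y covariate each left 0. The called gene was Icam1, an adhesion molecule, at 28.4, 33.3 and 39.8 CPM in WT and 35.3, 42.1 and 49.0 CPM in dblGATA (log2 fold change 0.33 ± 0.09 SE, edgeR adjusted p = 0.0370). In 4 of 7 dblGATA libraries Icam1 was above every WT library, and the call was lost under upper-quartile scaling (edgeR adjusted p = 0.0535), with the Xist against Ddx3y covariate (0.0837) and without WT 4, WT 6, dblGATA 3, dblGATA 4, dblGATA 5 or dblGATA 7 (edgeR adjusted p of at most 0.0888).

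Processing and release of the cytokines was read from 18 tested genes, of which 3 rose and 2 fell, with a median log2 fold change of 0.02, beside 7.1% higher and 6.39% lower among all genes tested. The calls were 3 higher and 1 lower by DESeq2, 2 and 1 by limma-voom, 1 and 2 under upper-quartile scaling, and 1 and 0 with the Xist against Ddx3y covariate. The 3 were Mefv, which encodes pyrin of an inflammasome (0.817 ± 0.144 to 1.36 ± 0.322 CPM, log2 fold change 0.74, edgeR adjusted p = 0.0279), Casp8, which encodes caspase-8 (0.19, 0.0419), and Capn1, which encodes a calpain subunit (0.29, 0.0489). S100a13, a binding partner in the release of IL-1 alpha, fell from 21.3 ± 2.72 to 15.9 ± 2.25 CPM (SD, n = 6 and 7, log2 fold change -0.43, edgeR adjusted p = 0.0247). Prtn3, which encodes a neutrophil protease, fell by 2.83 on the log2 scale (edgeR adjusted p = 0.0344), a value that rests on WT 3 at 3.68 CPM. Without WT 3 it was -1.12 (edgeR adjusted p = 0.0926). No gene of this list passed without WT 4, WT 6 or dblGATA 5, and 1 passed without dblGATA 7. Casp1, the protease that matures IL-1 beta and IL-18, had 56.5 ± 14.5 and 63.0 ± 6.69 CPM and did not pass (edgeR adjusted p = 0.416), nor did the inflammasome sensor gene Nlrp3 (log2 fold change 0.55, edgeR adjusted p = 0.154). The authors' deposited pathway table, of 649 pathways, gives IL-1 Signaling a −log10 p of 2.86 with a z score of 1.604. Il1rap is the 1 member among its 23 molecules. For IL-10 Signaling the values are 2.62 and -0.707, with Il1rn, Il1r2, Il1rap and Il1rl2 among its 32 molecules. They are 1.25 and 2.309 for Toll-like Receptor Signaling, 1.08 and 1.512 for the IL-33 Signaling Pathway, and 0.632 and 2 for the Inflammasome pathway.

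Within the genotypes the members did not vary as 1 block. Over the 13 libraries, after subtraction of each group's mean, Pearson's r of log2 CPM exceeded 0.5 for 5 of the 45 pairs and was below 0 for 15, with a median of 0.18. The values are descriptions over libraries that share scaling. Il1rl2 varied with Il1rap (r = 0.71), Il1r2 (0.57) and Il18 (0.56), Il1b with Il1rl1 (0.54), and Il1a with Il1rn (0.51). The lowest values were -0.70 for Il1a and Il18r1 and -0.51 for Il1rn and Il1r1. Il1rl2 thus varied with both other receptor chains that rose after group means were removed, but as much with Il18, which did not rise, as with Il1r2. No r was computed in 1 genotype alone.

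Among 13720 genes with a mean of at least 1 CPM, each member had different nearest genes by the same measure over 13 libraries. Il1b was nearest to Cxcl1 (r = 0.92), Csf3r (0.91) and Odc1 (0.91), Il1rn to Ppif (0.94), Saa1 (0.91) and Smox (0.90), and Il1a to the cornified envelope genes Lce3a (0.82), Lce3f (0.80) and Lce3b (0.79). Il18 was nearest to Tifa and Defb4 (each 0.97) and Aph1b (0.95). Il18r1 was nearest to Jak2 (0.98), Flt3 (0.95) and Traf1 (0.94), and Il1rl1 to Clec4n (0.94), Irak1bp1 and Srgn (each 0.92). No gene was among the nearest 3 of more than 1 member. Il1rl2 was nearest to Nipal2, Psd4 and Ankrd22 (each 0.93), Il1rap to Tor1aip2 (0.95), Cdk12 and Setd5 (each 0.94), Il1r2 to Fam221a (0.93), Vangl2 (0.90) and Jag2 (0.88), and Il1r1 to Cldn8, Trim44 (0.91 each) and Cenpc1 (0.90).

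In bulk tissue, fewer cells of a type and less RNA per cell cannot be told apart, so the cell type markers are given beside the members. Of 8 basal epithelium markers 7 rose in dblGATA (median log2 fold change 0.63, summed level 4305 to 6399 CPM in WT and 5862 to 9236 CPM in dblGATA). Without WT 4 and WT 6 none of these 8 passed by edgeR, and 7 had an unadjusted p under 0.05. The shares over all genes tested were 7.1% higher and 6.39% lower. Of 12 skeletal muscle markers 5 fell (median -0.55, summed level 24947 to 47728 CPM in WT and 18563 to 39216 CPM in dblGATA). Of 10 differentiated squamous epithelium markers none passed by edgeR, with summed levels of 28989 to 46168 and 37017 to 74605 CPM. An unadjusted edgeR p under 0.05 was found for 3 and DESeq2 called 3, beside 5371 and 3536 of all 16599 genes tested. With a covariate for the skeletal muscle markers the log2 fold changes were 0.24 for Il1rl2, 0.23 for Il1rap, 0.30 for Il1r2 and 0.52 for Il1rn, and no gene of the table passed. The part of the basal epithelium in these results was not tested.

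Among immune markers, the members' within-group r was high for Il18r1 with the summed T cell (0.86), regulatory T cell (0.86) and NK and cytotoxic markers (0.85). Il18r1 had nearly as high an r with dendritic and Langerhans cell markers (0.83). For Il1rl1 the r was high with the markers of mast cells and basophils (0.79). T cell markers were summed at 32.0 to 66.9 CPM in WT and 43.9 to 87.7 CPM in dblGATA, with 0 of 9 passing by edgeR or by DESeq2. Of 6 regulatory T cell markers Foxp3 rose (log2 fold change 0.83, edgeR adjusted p = 0.0395). An unadjusted p under 0.05 was found for 4 of the 6, beside 5371 of all 16599 genes tested. The median for regulatory T cell markers was 0.53, with sums of 23.0 to 40.8 CPM in WT and 32.1 to 48.0 CPM in dblGATA. The part of these cells in the Il18r1 values was not tested. Mast cell and basophil markers were summed at 41.6 to 67.5 and 27.3 to 66.1 CPM, with Mcpt8 at 0 in some libraries. Among 9 tested Ms4a2 was higher and Mcpt4 lower, beside 7.1% higher and 6.39% lower among all genes tested. Il1rl1 had its lowest r with differentiated squamous markers (-0.89). Il1rl2 and Il1rap had theirs with endothelial (-0.76) and fibroblast (-0.78) markers. These correlations describe 13 libraries of mixed tissue.

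Counts summed to between 66339087 and 98195869 per library, and 3 counts were worth 0.0299 to 0.0526 CPM. Members had at least 61 counts in every library. Ccr3, the eotaxin receptor of eosinophils, fell in dblGATA (0.681 to 0.139 CPM, edgeR adjusted p = 0.0179), while the eosinophil markers Epx, Ear6 and Ear1 were at 0 in some libraries of the study. WT 3 held 106 counts of Gata1, 142 of Epx and 744 of Prg2, another eosinophil marker. In all other WT libraries Epx was at 0 counts and Prg2 at 2 to 15. Prg2 had 3 to 20 counts in dblGATA. Rn18s took 10.1% of counts in WT 4 and 16.9% in WT 6, and at most 3.24% elsewhere. In WT 1 to WT 4 both Xist (48.9 to 208 CPM) and Ddx3y (48.7 to 100 CPM) were present, which libraries of 1 sex do not hold together. Both Xist and Ddx3y were also found in dblGATA 6 (527 and 23.1 CPM) and dblGATA 7 (710 and 4.39 CPM). Xist exceeded Ddx3y in 4 of 6 WT and 2 of 7 dblGATA libraries, and with this as a covariate Il1rn was not called (log2 fold change 0.51, edgeR adjusted p = 0.0762). Whether every library is 1 animal is not stated in the labels, so the spread behind the p-values is that between libraries and may be technical.

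**Figure D5:**
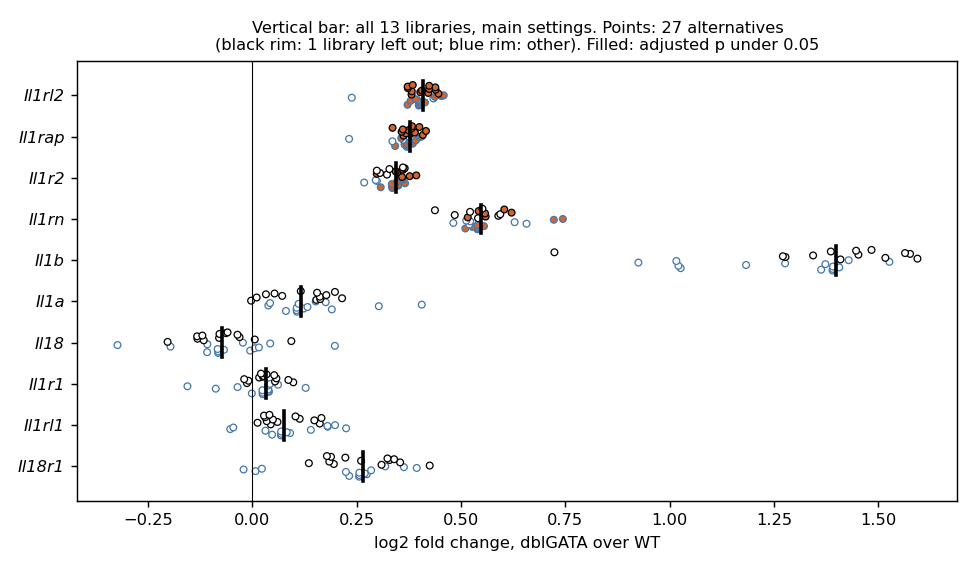
Log2 fold change (dblGATA over WT) of each member with all 13 libraries (vertical bar) and under 27 alternatives (points; black rim, 1 library left out; blue rim, another scaling, test, filter, covariate or set of libraries); filled points have an adjusted p under 0.05. Points of Il1rl2, Il1rap, Il1r2, Il1rn and Il1b all lie above 0, while those of Il18, Il1r1, Il1rl1, Il18r1 and Il1a fall on both sides. The lowest values were -0.053 for Il1rl1, -0.021 for Il18r1 and -0.0028 for Il1a.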

How the data were processed

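RNA of whole esophagus was sequenced in 6 WT and 7 dblGATA libraries as stranded, poly-A selected RNA, per the labels' protocols (mean RNA integrity number 8.8). The raw table deposited by the authors was read as estimated counts rounded to whole numbers, an inference from the values: raw divided by the authors' normalized signal varied by gene, by over 10% from the library's median in at least 1 library for 28.0% of 13105 genes with at least 100 counts. The submitters' processing notes name DESeq2 1.34.0. No aligner, counter or build is given in the sources used here. The log2 fold changes and p-values of the authors' comparison, and the −log10 p-values and z scores of their pathway table, were copied from the deposited tables as the authors' own values, and serve only for description.

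Genes were filtered with filterByExpr (minimum count 10, minimum total 15, 16599 genes), scaled by TMM and tested with edgeR 4.0.16 under R 4.3.3 (robust quasi-likelihood), with Benjamini-Hochberg adjustment over all genes and a threshold of 0.05. SE was taken as log2 fold change over the square root of F. On simulated data this fit recovered 66% of genes changed 1.5-fold and 79% of genes changed 2-fold. Genes were drawn independently there, so these shares do not describe recovery where many genes share differences between libraries. Counts summed to between 66339087 and 98195869 per library. Floors of 3 counts cover counting error only. The 2 most alike libraries, dblGATA 5 and dblGATA 7, had a chi-square of 55.7 per degree of freedom, above sampling noise.

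The members and lists were chosen with earlier results of these data known. Named are the 10 members, their relatives, and of each other list the called genes (up to 6, or up to 3 not called), as well as the 3 genes of highest r for each member and genes that check the libraries. Casp1, Nlrp3, Ptgs2, Cxcl1 and the overlapping antisense genes were named outside this rule, after their values were seen. Of the T cell markers 9 of 10 were matched. Alternatives were DESeq2 1.42.0, limma-voom (limma 3.58.1), other size factors and filters, the replicate number as a block, covariates (Rn18s, skeletal muscle, Xist against Ddx3y), libraries left out, limma on log2(value + 1) of the normalized table and, added after the data had been seen, the authors' factors in edgeR. Promoters of all 10 members (16 windows) were matched by symbol in RefSeq. Protein sequences were not used here.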

Additional observations from a re-analysis of the deposited data

Results flagged for a closer look

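Il1b in dblGATA 4 stood at 14.9 CPM, with the nearest of the other dblGATA libraries at 4.85 CPM. The gap was 0.722 of the whole range of the group. The log2 ratio of Il1rap to Il1r1 in dblGATA 5 was 0.337, with the nearest dblGATA library at 0.0386 and a gap of 0.611 of the range. A sample far from its group is found by chance in about 1 in 20 groups, and 32 groups were examined. Without dblGATA 4 the log2 fold change of Il1b was 0.72, and it was 1.40 with all libraries (edgeR adjusted p = 0.222 and 0.104).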

How the results depend on the processing

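The 4 called members were called in every scaling, filter and test alternative run on all 13 libraries without a block or a covariate. The number called fell from 4 to 0 without WT 4 and WT 6, with a Rn18s covariate and with a skeletal muscle covariate, with 4 members at an unadjusted p under 0.05 in each. There all genes called by edgeR went from 2239 to 0, with 3542, 3912 and 1371 genes at an unadjusted p under 0.05. The log2 fold changes of Il1rl2 were then 0.40, 0.43 and 0.24, and those of Il1rn 0.66, 0.63 and 0.52. Il1rn was also not called without WT 3 and WT 5 (adjusted p = 0.0795) and with Xist against Ddx3y as a covariate (0.0762), where 3 members were called. Leaving out 1 library gave 2 to 4 called members and 357 to 3828 called genes. All genes called numbered 3536 by DESeq2 and 1179 with the Xist covariate. Upper-quartile scaling gave 830 higher and 1299 lower genes in place of 1179 and 1060, and edgeR with the authors' factors gave 1899.

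The replicate number as a block (numbers 1 to 6) gave 880 called genes and 3 called members, without Il1rn (adjusted p = 0.113), 1 called gene each in receptor signalling and in processing and release, where the unblocked fit called 5 each. Samples of the same number had correlations of -0.06 to 0.11 after subtraction of group means. No WT library was most alike to the dblGATA library of its own number. These values span whole profiles, so they cannot decide on a pairing that affects only part of the genes.

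Without WT 4 and WT 6, processing and release went from 5 to 0 called genes, receptor signalling from 5 to 0 and IL-1-inducible genes from 1 to 0, with 7, 7 and 1 genes at an unadjusted p under 0.05. Among ratios, Il1rap to Il1r1 was 0.24 without WT 3 and WT 5 (adjusted p = 0.0909), and Il1rn to Il1a was 0.55 with the authors' normalized values (adjusted p = 0.0245). Leaving out 1 library gave 0.25 to 0.53 for Il1rn to Il1a, 0.20 to 0.36 for Il1r2 to Il1r1 and -0.21 to 0.15 for Il18bp to Il18, which was 0.22 without WT 3 and WT 5.

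Directions that changed belong to genes that did not pass. Without WT 3 and WT 5, log2 fold changes were 0.11 for Il18bp, -0.053 for Il1rl1, -0.11 for Il36a, -0.045 for Il36b and 0.077 for Sigirr. With the muscle score they were 0.084 for Il18bp, -0.16 for Il1r1, -0.045 for Il1rl1, -0.079 for Il36a and -0.20 for Il36b. With Rn18s they were 0.20 for Il18, -0.021 for Il18r1 and -0.035 for Il1r1. Without WT 4 and WT 6 they were 0.016 for Il18 and -0.087 for Il1r1. The block gave 0.0061 for Il18, the Xist covariate 0.030 for Il18bp, limma on the authors' normalized values 0.043 for Il18 and 0.039 for Il1f10, upper-quartile scaling -0.000994 for Il1r1 and limma-voom -0.087 for Il1rapl1. Leaving out 1 library gave ranges of -0.20 to 0.094 for Il18, -0.10 to 0.086 for Il18bp, -0.0028 to 0.22 for Il1a, -0.019 to 0.10 for Il1r1 and -0.095 to 0.38 for Il1rapl1. The cause of these changes was not tested. Mean levels of Il1f10 and Il1rapl1 were under 0.2 CPM in both groups.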
